A study of Mus musculus with 16 samples.

Results

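The CSF1 receptor and its ligands form the target system of the compound tested in this study. The 3 transcripts described here are Csf1r, the receptor, and Csf1 and Il34, its ligands. They were chosen by name for that role, but with earlier results of these data known. They are 3 of the 17370 genes in the deposited mouse quadriceps table, and all 3 passed the filter on low counts that left 15411 genes for testing.

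RNA of whole quadriceps muscle was sequenced in 16 libraries, 4 in each of 4 groups. A healthy and an injured limb, the latter with a transected anterior cruciate ligament (ACL), were taken from mice given either a CSF1-R inhibitor or placebo. Per the labels' protocol, the drinking water held the inhibitor at 40 mg/kg or 0.5% sucrose, and treatment lasted 7 days from the transection. The inhibitor is not named in the sources used here, nor are strain, sex, age or genotype, so no allele can be given for any group. The labels call the placebo and inhibitor libraries biological replicates. Every healthy library had a left sample name and every injured library a right one, so injury and body side cannot be told apart. Paired left and right sample names were read as 2 limbs of 1 animal, 4 animals per treatment. The series' design text instead describes muscle before and after transection, so the pairing is not settled. If paired names are limbs of 1 animal, the healthy limb came from an animal whose other knee was injured, not from an uninjured mouse.

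CSF1R is a receptor tyrosine kinase carried mainly by monocytes, tissue macrophages and osteoclasts, whose survival and proliferation depend on it. CSF1 and IL-34 bind the same receptor although their sequences are unrelated. CSF1 is made by many stromal and endothelial cells, while IL-34 is best known from skin and brain, where it maintains Langerhans cells and microglia. In injured muscle, macrophages clear debris and accompany fibre repair, and kinase inhibitors of CSF1R are known to deplete many macrophage populations. The sample titles here name transection of the ligament and do not say that the quadriceps itself was injured. Transcript levels measure neither the ligand proteins nor the activity of the receptor.

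In the GRCm38 assembly, Csf1r (ENSMUSG00000024621) lay on the plus strand of chromosome 18 from 61100598 to 61132149, Csf1 (ENSMUSG00000014599) on the minus strand of chromosome 3 from 107741048 to 107760469, and Il34 (ENSMUSG00000031750) on the minus strand of chromosome 8 from 110741829 to 110805924. All are protein-coding, with merged exon lengths of 5774, 5281 and 1959 bases. Csf1r shared 873 bases with the oppositely oriented Hmgxb3, which had a median count of 568.5. Il34 overlapped 2 antisense genes, Gm15895 over 287 bases and Gm15894 over 3979 bases, and Gm15894 had a median count of 2. Whether the counting used strand is not given in the sources used here, so reads of these overlaps cannot be assigned with certainty. RefSeq lists a pseudogene of Csf1r, and reads shared with it could be split in the counting.

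The Csf1 promoter is printed because Csf1 is the ligand whose level was highest per exon length in most libraries, and it was the one member in the RefSeq promoter table. The 250 bases before the annotated start, at chr3:107760470-107760719 of GRCm38.p6 on the minus strand, read 5′ to 3′ with its GC boxes in capitals:

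Csf1 promoter: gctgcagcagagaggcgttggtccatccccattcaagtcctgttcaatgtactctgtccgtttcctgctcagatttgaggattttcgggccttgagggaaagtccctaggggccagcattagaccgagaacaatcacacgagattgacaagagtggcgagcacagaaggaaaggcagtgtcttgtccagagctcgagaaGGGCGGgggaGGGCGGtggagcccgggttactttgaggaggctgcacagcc

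The capitals mark the GC box GGGCGG, which began at -51 and -41 from the start, and 32.7% of 32851 RefSeq promoter windows of this length hold it on 1 or the other strand. Neither the AP-1 sequence TGACTCA (in 4.46% of windows) nor the TATA sequence TATAAA (12.4%) was present on either strand. The NF-kappaB consensus, which 7.25% of windows hold on either strand, matched once, beginning at -154 on the opposite strand. All 4 motifs were picked after this promoter had been read, and the NF-kappaB match had been noticed before it was searched for. A match is a description of letters and says nothing about binding in these muscles.

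All 3 transcripts were detected in every library. Library totals were between 20.12 and 27.13 M (mega) counts, and levels below are CPM, counts scaled to a common library total after normalization by the trimmed mean of M values (TMM). A count of 3 corresponded to 0.109 to 0.159 CPM, well below any member. Csf1r had 47 to 1756 counts per library, Csf1 169 to 560 and Il34 41 to 106, so Il34 carried the largest counting error of the 3. The labelled tissue matched its markers, since 7 muscle fibre genes together reached 84307 to 163817 CPM. In 4 libraries Prg4, the lubricin gene of joint lining and cartilage surface, was between 169 and 286 CPM, against 3.97 to 19.5 CPM in the other 12. These were healthy placebo 4, injured placebo 2, injured placebo 3 and healthy inhibitor 1, and results are given with and without them.

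In healthy limbs with placebo, Csf1r was at 1.83, 12.7, 3.45 and 29.9 CPM in animals 1 to 4. In injured limbs with placebo it was at 16.4, 63.8, 60 and 10.4 CPM in the same order. The healthy and injured ranges overlapped, and placebo animal 4 was the highest healthy library and the lowest injured one. With the inhibitor, Csf1r was at 14.5, 8.48, 6.97 and 3.39 CPM in healthy limbs and at 9.51, 6.03, 11.6 and 7.85 CPM in injured limbs. All 8 inhibitor libraries thus lay at or below 14.5 CPM, a level exceeded by 4 of 8 placebo libraries.

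The mean of the 4 healthy placebo libraries was 12 ± 12.9 CPM for Csf1r and that of the 4 injured placebo libraries 37.7 ± 28.2 CPM. The inhibitor groups had means of 8.34 ± 4.63 CPM (healthy) and 8.75 ± 2.38 CPM (injured; SD, n = 4 each). Within a group the coefficient of variation ran from 27.2% in injured inhibitor to 108% in healthy placebo. Over the 16 libraries the highest Csf1r level was 34.9 times the lowest. The edgeR biological coefficient of variation was 0.735 for Csf1r, against a median of 0.209 over all genes tested. The receptor was therefore much more variable between libraries than most genes.

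Csf1, the ligand made by many stromal cells, moved over a narrower range. It was at 7.43, 11, 9.57 and 20.5 CPM in healthy placebo limbs and at 8.94, 20.4, 20.6 and 13.1 CPM in injured placebo limbs. It was at 13.4, 12.5, 10.5 and 12.5 CPM in healthy inhibitor limbs and at 12.2, 8.94, 14 and 15.5 CPM in injured inhibitor limbs. Healthy placebo 4, injured placebo 2 and injured placebo 3, all with high Prg4, were the 3 libraries above 20 CPM, and the other 13 lay at or below 15.5 CPM. Group means were 12.1 ± 5.75, 15.7 ± 5.74, 12.3 ± 1.22 and 12.7 ± 2.83 CPM in healthy placebo, injured placebo, healthy inhibitor and injured inhibitor (SD, n = 4 each). The highest library was 2.78 times the lowest.

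Il34, the second ligand, was the least variable of the 3. Its levels were 3.46, 2.76, 2.58 and 4.45 CPM in healthy placebo limbs and 3.22, 3.34, 4.25 and 3.99 CPM in injured placebo limbs. In inhibitor animals they were 2.74, 3.75, 3.45 and 3.18 CPM in healthy limbs and 2.39, 2.17, 3.84 and 3.9 CPM in injured limbs. Every group overlapped every other, and group means lay between 3.08 ± 0.924 and 3.7 ± 0.498 CPM (SD, n = 4 each). The coefficient of variation over the 16 libraries was 20.2% for Il34, against 31.7% for Csf1 and 113% for Csf1r.

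**Figure D1:**
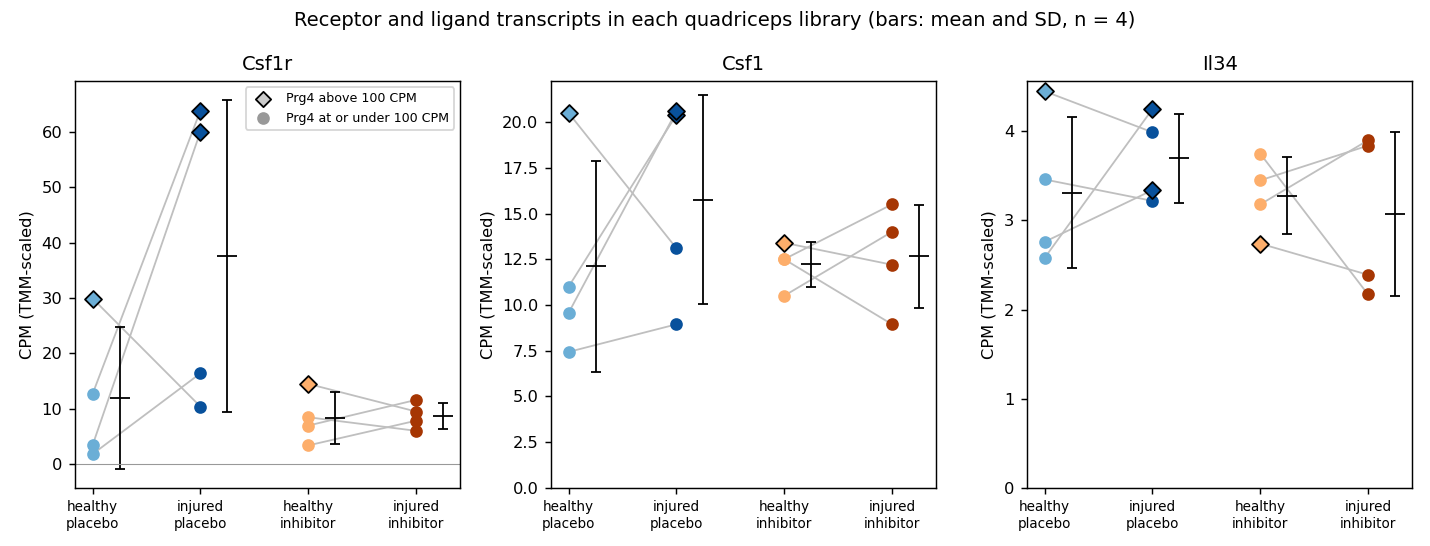
CPM of Csf1r, Csf1 and Il34 in each library (points), with grey lines joining the limbs of an animal, black bars for the group mean and SD, and black-edged diamonds for the 4 libraries with Prg4 above 100 CPM. Injured placebo limbs 2 and 3 stand at 63.8 and 60 CPM of Csf1r, whereas no inhibitor library exceeds 14.5 CPM.

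Levels of different genes can be compared only per exon length. On that scale the median over 16 libraries was 2.38 CPM per kilobase for Csf1 (range 1.41 to 3.91), 1.73 for Csf1r (0.317 to 11.1) and 1.73 for Il34 (1.11 to 2.27). Csf1 exceeded Il34 in 15 of 16 libraries, with a ratio of 0.797 to 2.25. Il34 exceeded Csf1r in 8 of 16 libraries, so the order of these 2 was not settled by the data. Csf1 was the highest of the 3 in 10 libraries, Csf1r in 5 and Il34 in 1. Merged exon length is not the length of the isoform expressed, which limits these ratios.

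The 4 libraries with high Prg4 moved with the receptor. Csf1r was at 14.5 to 63.8 CPM in those 4 libraries and at 1.83 to 16.4 CPM in the other 12. Csf1 was at 13.4 to 20.6 CPM in the 4 and at 7.43 to 15.5 CPM in the 12, while Il34 was at 2.74 to 4.45 and 2.17 to 3.99 CPM. The 7 other joint lining and cartilage genes, without Prg4 that picked the 4 libraries, summed to 29.9 to 72.6 CPM in the 4 and to 6.58 to 17 CPM in the 12. The summed level of 24 macrophage genes, Csf1r among them, was 169 to 1047 CPM in the 4 and 35.5 to 177 CPM in the 12. No injured inhibitor library was among the 4, and the part of such tissue in the results was not tested.

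The first comparison asked whether the receptor system differed between the quadriceps of injured and healthy limbs under placebo. Csf1r was higher in injured limbs by 1.66 ± 0.79 on the log2 scale (SE), with an unadjusted p of 0.057 and an edgeR adjusted p of 0.641. Csf1 differed by 0.38 ± 0.30 (edgeR adjusted p = 0.7076) and Il34 by 0.16 ± 0.24 (edgeR adjusted p = 0.846). None of the 3 members passed the threshold of 0.05 in edgeR's quasi-likelihood test with Benjamini-Hochberg adjustment over all genes, and percent called over all 15411 genes was 0%. At an unadjusted p under 0.05, 1116 genes were found, and DESeq2 called 2.

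By animal, Csf1r differed between injured and healthy limbs by 3.11, 2.32, 4.09 and -1.52 on the log2 scale in placebo animals 1 to 4. It was thus higher in the injured limb of 3 of 4 placebo animals. Csf1 was also higher in 3 of 4, with differences of 0.26, 0.88, 1.10 and -0.65, and animal 4 was again the exception. Il34 was higher in 2 of 4, with differences of -0.10, 0.27, 0.70 and -0.16. Each of the 8 animals was left out in turn, an analysis added after the data had been seen. Csf1r then differed by 1.03 to 2.97 in placebo, and the adjusted p of edgeR fell below the threshold only without animal 4, where it was 0.0429 with 971 genes called. Animal 4 is the animal with the opposite direction, so leaving it out selects on the outcome, and that value is not evidence of a difference. Without the 4 libraries with high Prg4, the Csf1r difference was 1.16 ± 0.685 (edgeR adjusted p = 0.98).

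Under the inhibitor the same comparison gave values near 0. Csf1r differed between injured and healthy limbs by 0.07 ± 0.80 on the log2 scale, Csf1 by 0.05 ± 0.30 and Il34 by -0.09 ± 0.24, each with an edgeR adjusted p of 0.9999. No member was called, percent called was 0%, 202 genes had an unadjusted p under 0.05 and DESeq2 called 1 gene. Csf1r differed by -0.60, -0.49, 0.73 and 1.19 in inhibitor animals 1 to 4, 2 in each direction. Csf1 and Il34 were each higher in the injured limb of 2 of 4 animals. With a standard error of 0.80, a Csf1r difference as large as that under placebo was not shown to be absent.

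The difference between these 2 injury effects was tested directly. For Csf1r it was -1.59 ± 1.12 on the log2 scale, with an unadjusted p of 0.1798 and an edgeR adjusted p of 0.9977. It was -0.69 ± 0.904 without the 4 libraries with high Prg4, -0.96 without placebo animal 3 and -2.90 without placebo animal 4. With all libraries it was -0.33 ± 0.42 for Csf1 and -0.25 ± 0.34 for Il34, with the same adjusted p. The injury effect was therefore not shown to differ between placebo and inhibitor for any member, and percent called was 0% with 423 genes at an unadjusted p under 0.05 and 0 called by DESeq2. Averaged over treatments, injury gave 0.86 ± 0.56 for Csf1r, 0.22 ± 0.21 for Csf1 and 0.03 ± 0.17 for Il34. Their edgeR adjusted p values were 0.819, 0.8487 and 0.9711, percent called was 0%, 757 genes had an unadjusted p under 0.05 and DESeq2 called 0.

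In injured limbs, the comparison of inhibitor with placebo gave the largest member difference. Csf1r was lower with the inhibitor by -2.10 ± 0.81 on the log2 scale, with an unadjusted p of 0.02194 and an edgeR adjusted p of 0.2673. Injured inhibitor limbs reached at most 11.6 CPM and injured placebo limbs began at 10.4 CPM, so the groups overlapped by 1 library on each side. Csf1 differed by -0.31 ± 0.30 (edgeR adjusted p = 0.6667) and Il34 by -0.26 ± 0.24 (edgeR adjusted p = 0.6406). edgeR called no member and percent called was 0%. At an unadjusted p under 0.05, 2289 genes were found, DESeq2 called 248 and limma-voom with quality weights 1229.

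With those quality weights, which count variable libraries less, Csf1r was at -2.29 in this comparison with a limma adjusted p of 0.0442. Over the 24 alternatives run, its adjusted p ranged from 0.0442 to 0.895. Without the 4 libraries with high Prg4, 2 of which are injured placebo limbs, the Csf1r difference was -0.61 ± 0.64 (edgeR adjusted p = 0.895) and that of Csf1 turned to 0.21 ± 0.225. Mean Csf1r was then 13.4 ± 4.24 CPM in injured placebo (SD, n = 2) and 8.75 ± 2.38 CPM in injured inhibitor (SD, n = 4). Most of the Csf1r difference in injured limbs thus rested on injured placebo 2 and 3.

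In healthy limbs, inhibitor and placebo differed by -0.52 ± 0.79 for Csf1r, 0.02 ± 0.30 for Csf1 and -0.01 ± 0.24 for Il34 on the log2 scale. Each edgeR adjusted p was 0.9996, percent called was 0%, 514 genes had an unadjusted p under 0.05 and DESeq2 called 12. Without the 4 libraries with high Prg4 the Csf1r difference was 0.08 ± 0.633, so its sign was not stable. Averaged over limbs, the inhibitor difference was -1.31 ± 0.56 for Csf1r, with an unadjusted p of 0.03703 and an edgeR adjusted p of 0.3057. It was -0.80 without healthy placebo 4 alone and -0.26 ± 0.452 without the 4 libraries with high Prg4. With all libraries Csf1 and Il34 differed by -0.15 ± 0.21 and -0.14 ± 0.17. None of the 3 was among the 45 genes called, 0.292% of those tested, and this fit takes the 2 limbs of an animal as independent.

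For no member did the 4 libraries of 1 group lie wholly above or below those of the other, in any of the 4 single comparisons. Among all genes tested, that separation occurred in either direction for 1.55% of genes for injury with placebo, 2.25% for injury with inhibitor, 5.64% for the inhibitor in injured limbs and 2.55% for the inhibitor in healthy limbs.

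**Figure D2:**
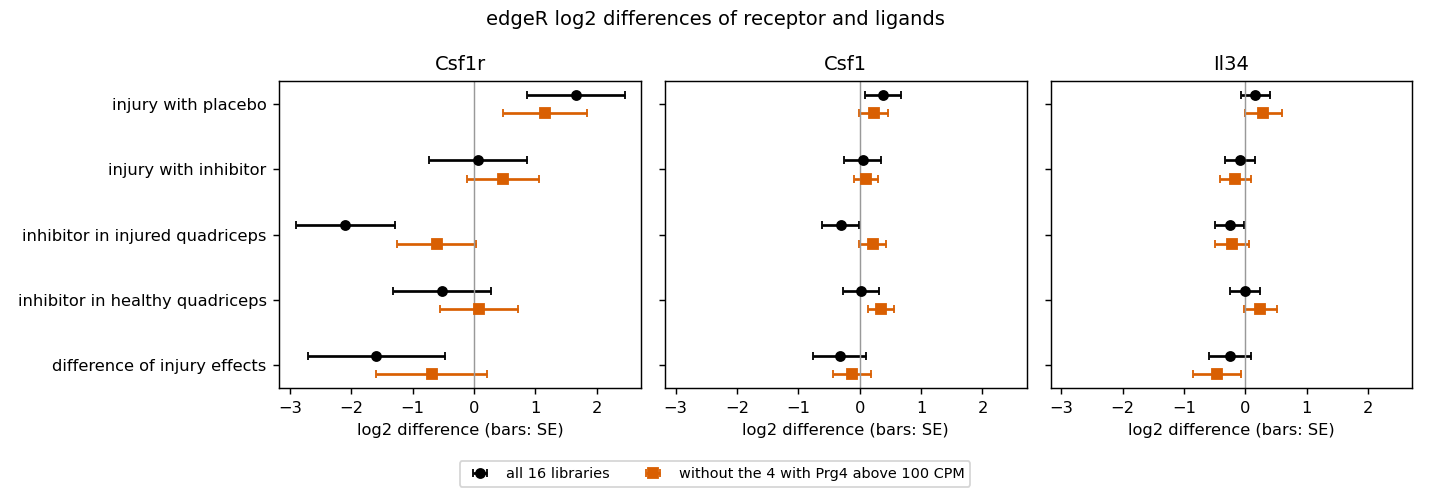
Log2 differences from edgeR (horizontal axis, bars are SE) of Csf1r, Csf1 and Il34 in 5 comparisons, with all 16 libraries (black circles) and without the 4 with Prg4 above 100 CPM (orange squares). For Csf1r the inhibitor difference in injured limbs is -2.10 with all libraries and -0.61 without the 4, while both ligands stay within 0.5 of 0.

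Within each library, the ligand Csf1 was set against its receptor as the log2 ratio of their CPM. The group means of this log2 ratio were 0.667 ± 1.232 in healthy placebo, -0.931 ± 0.904 in injured placebo, 0.724 ± 0.825 in healthy inhibitor and 0.543 ± 0.313 in injured inhibitor (SD, n = 4 each). In injured placebo limbs 1 to 4 the log2 ratio was -0.870, -1.645, -1.536 and 0.324, against 0.273 to 0.977 in injured inhibitor limbs. Receptor counts thus exceeded Csf1 counts in 3 of 4 injured placebo limbs and in no injured inhibitor limb. They also did so in healthy placebo 2, healthy placebo 4 and healthy inhibitor 1, where the log2 ratio was -0.207, -0.547 and -0.113. Injured placebo limbs 2 and 3 had high Prg4, and limbs 1 and 4, with low Prg4, lay on both sides of 0. The ratio is not per exon length, so its sign does not rank the levels of the 2 genes. The inhibitor difference in injured limbs was 1.474, with a two-sided exact permutation p of 0.0571 (adjusted p = 0.394 over 14 tests). The injury difference under placebo was -1.598, with an exact permutation p of 0.114 (adjusted p = 0.394). Neither passed the threshold, and 4 against 4 libraries cannot give a p below 0.0286.

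The receptor was then set against the mean log2 level of the other 23 macrophage genes. This log2 difference averaged 1.745 ± 0.562 in healthy placebo, 2.017 ± 0.198 in injured placebo, 2.062 ± 0.220 in healthy inhibitor and 2.183 ± 0.199 in injured inhibitor (SD, n = 4 each). Over the 16 libraries its SD was 0.34, against 1.38 for the log2 level of Csf1r itself. The inhibitor difference in injured limbs was 0.166, with an exact permutation p of 0.286 (adjusted p = 0.52). Csf1r and the macrophage genes therefore varied together, and a change of the receptor relative to them was not detected. In bulk muscle, fewer macrophages and less Csf1r RNA per macrophage cannot be told apart from the Csf1r level alone.

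Members were compared with each other over the 16 libraries, which include 2 limbs of each animal and are not fully independent. Csf1r and Csf1 had a Pearson r of 0.80 (permutation p = 0.00027, adjusted p = 0.00081 over 3 pairs) and a Spearman rho of 0.62 (permutation p = 0.013). Without injured placebo 2 and 3, the libraries farthest from the median of Csf1r, r was 0.64 (permutation p = 0.013). Within the 12 libraries with low Prg4, r was 0.44 (permutation p = 0.15) and rho 0.24, so the relation was not shown there. Csf1 and Il34 had an r of 0.56 (permutation p = 0.025, adjusted p = 0.037) and a rho of 0.60 (permutation p = 0.016). Without 2 libraries their r was 0.62 (permutation p = 0.019), and within the 12 it was 0.44 (permutation p = 0.15). Csf1r and Il34 had an r of 0.36 (permutation p = 0.17) and a rho of 0.33, and r was 0.27 without 2 libraries and 0.12 within the 12.

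**Figure D3:**
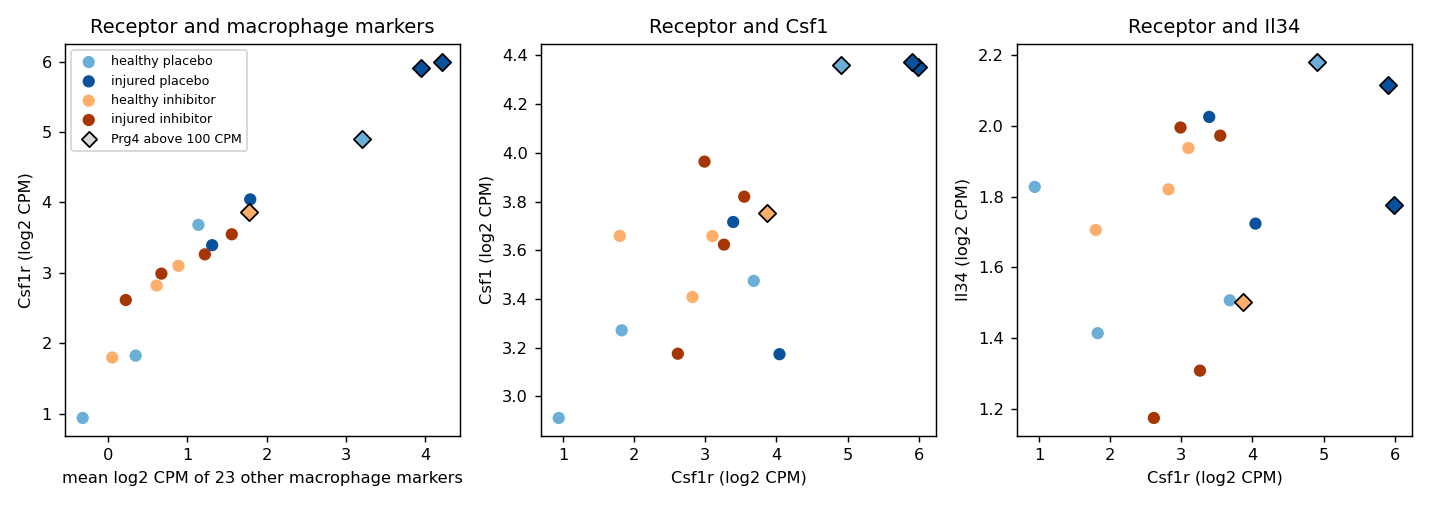
Log2 CPM in each library of Csf1r against the mean of 23 other macrophage genes (left), of Csf1 against Csf1r (middle) and of Il34 against Csf1r (right), coloured by group, with diamonds for the 4 libraries with Prg4 above 100 CPM. Csf1r follows the macrophage mean over all libraries, whereas Csf1 follows Csf1r with r of 0.80 over 16 libraries and 0.44 within the 12 with low Prg4.

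Among 10833 genes with a symbol and a mean log2 CPM of 1 or more, those most like each member over the 16 libraries were different for each. Genes whose symbol begins with Gm and a number or ends in Rik were left out of this ranking. The closest to Csf1r were Ccl9, a chemokine, with r of 0.99, C1qc at 0.98, Laptm5 at 0.98, Dab2 at 0.97 and C1qb at 0.97. C1qb and C1qc encode chains of complement C1q, made largely by macrophages, and both are on the macrophage list. Within the 12 libraries with low Prg4, the r of these 5 genes with Csf1r was between 0.94 and 0.97. The genes were picked over all 16 libraries, which include these 12, so this is no independent check.

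The genes closest to Csf1 were Dpt at 0.95, Vat1 at 0.94, Dnm1 at 0.94, Thy1 at 0.93 and Ecm1 at 0.93. Dpt encodes the matrix protein dermatopontin and Thy1 a surface protein used to mark fibroblasts. Within the 12 libraries these r values were 0.82 to 0.85. The genes closest to Il34 were Fbxl6 and Ggt5 at 0.80, Cask and Tle3 at 0.76 and Htra4 at 0.75, and within the 12 they were 0.69 to 0.87. Il34 had the fewest counts, which limits how high its r can be.

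Over the macrophage list, the median r was 0.90 with Csf1r, 0.78 with Csf1 and 0.39 with Il34 in 16 libraries. In the 12 libraries with low Prg4 the same medians were 0.79, 0.30 and 0.14. Over 7 markers of fibro-adipogenic progenitors, the mesenchymal cells of muscle, the median r was 0.89 with Csf1r, 0.81 with Csf1 and 0.37 with Il34. In the 12 these medians were 0.72, 0.65 and 0.10. These r values are descriptions, since genes of a list are not replicates.

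The other genes of the pathway were read from lists that were chosen with earlier results of these data known. Of 24 macrophage genes, all 24 had a higher fitted level in injured placebo limbs than in healthy ones, with a median log2 difference of 1.64 against 0.0067 over all genes tested. In injured limbs all 24 were lower with inhibitor than with placebo, with a median of -2.61 against -0.0205. The 2 comparisons share the injured placebo libraries and are not independent. Not 1 of the 24 genes passed the edgeR threshold in either comparison, although 5 and 22 had an unadjusted p under 0.05, against 1116 and 2289 of the 15411 genes tested. Csf1r is on this list, and its -2.10 was a smaller difference than the list's median. Without the 4 libraries with high Prg4, the medians were 1.16 and -0.666 over the 23 genes then tested. With all libraries, the median summed level of the 24 genes was 85.5 CPM in healthy placebo and 83.9 CPM in healthy inhibitor limbs. It was 554 CPM in injured placebo and 101 CPM in injured inhibitor limbs. Fibro-adipogenic progenitor markers moved with these genes, with 7 of 7 higher with injury (median 0.498) and 6 of 7 lower with inhibitor (median -0.474), while 7 of 7 fibre and 6 of 6 endothelial markers were lower with injury (medians -0.224 and -0.192). In the 12 libraries with low Prg4 the progenitor medians were 0.49 and 0.0161, and 5 of 7 fibre and 3 of 6 endothelial markers were lower with injury. None of these markers passed the edgeR threshold, and their part in the Csf1r result was not tested.

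Of the macrophage markers, Adgre1, which encodes F4/80, averaged 14.4 ± 13.1 CPM in injured placebo and 1.7 ± 1.03 CPM in injured inhibitor (SD, n = 4 each). Its inhibitor difference there was -3.06 ± 1.06 on the log2 scale. Cd68, a lysosomal protein, differed by -3.60 ± 1.27, and Ccr2, the chemokine receptor of recruited monocytes, by -2.99 ± 0.97. Mrc1 and Cd163, scavenging receptors of resident macrophages, differed by -1.53 ± 0.48 and -1.13 ± 0.49. All of these stayed above the threshold, with edgeR adjusted p between 0.23 and 0.31. In injured placebo limbs 1 and 4, which had low Prg4, Cd68 was at 1.56 and 1.72 CPM and Ccr2 at 5.94 and 4.7 CPM. Injured inhibitor limbs reached 1.73 and 7.81 CPM, so these levels overlapped. Adgre1 was at 4.87 and 2.6 CPM there, against at most 2.6 CPM. Mrc1 was at 18.8 and 13 CPM against at most 12.3 CPM, and Cd163 at 12.8 and 8.31 CPM against at most 6.02 CPM.

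Of 8 transcription factors that control the receptor gene or macrophage fate, 6 were higher with injury under placebo and 6 were lower with inhibitor in injured limbs, and 0 passed the edgeR threshold. In the 12 libraries with low Prg4, 8 were higher with injury and 6 lower with inhibitor. Spi1, whose product PU.1 drives Csf1r transcription, differed by 1.85 ± 0.75 with injury and by -2.53 ± 0.78 with inhibitor. Runx1 differed by 0.83 ± 0.72 and -2.23 ± 0.76, and Irf8, a factor of monocyte development, by 0.73 ± 0.38 and -1.28 ± 0.39. Cebpa, which adipocytes also express, differed by 0.63 ± 0.78 and -0.07 ± 0.77. In injured placebo limbs 1 and 4, with low Prg4, Spi1 was at 2.06 and 1.8 CPM, against at most 1.65 CPM in injured inhibitor limbs. Runx1 was at 5.32 and 2.22 CPM there against at most 3.8 CPM, and Irf8 at 3.35 and 4.7 CPM against at most 4.39 CPM.

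Of 18 adaptor and signalling genes downstream of the receptor, 14 were higher with injury under placebo and 15 were lower with inhibitor in injured limbs, with medians of 0.179 and -0.383 and 0 called. In the 12 libraries with low Prg4 the medians were 0.05 and -0.106 over the 17 genes then tested. Tyrobp, the myeloid adaptor DAP12, differed by 2.25 ± 0.95 with injury and by -2.92 ± 0.99 with inhibitor. It was at 1.74 and 1.09 CPM in injured placebo limbs 1 and 4, with low Prg4, against at most 1.49 CPM in injured inhibitor limbs. Grb2, an adaptor of most cells, differed by -0.08 ± 0.11 and 0.04 ± 0.11. Grb2 was picked after its values were seen and does not stand for the other genes of the list. Stat3, also picked in that way, averaged 67.2 ± 5.26 CPM in injured placebo and 54.3 ± 1.49 CPM in injured inhibitor limbs (SD, n = 4 each). Of 9 negative regulators, 8 were higher with injury and 8 lower with inhibitor, and again 0 were called. When the 4 libraries with high Prg4 were left out, 6 were higher with injury and 6 were higher with inhibitor, whose median turned from -1.16 to 0.037. Adam17, a protease that sheds the receptor from the surface, differed by 0.43 ± 0.15 and -0.18 ± 0.15, and Cbl, the ubiquitin ligase that sends it for degradation, by 0.18 ± 0.18 and -0.30 ± 0.18.

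Of 3 other genes for proteins reported to bind IL-34, 0 were called in either comparison. Ptprz1, a phosphatase receptor, was between 0.0389 and 1.37 CPM, and Sdc1, a cell surface proteoglycan, between 2.14 and 11.6 CPM. Ptprz1 differed by -0.05 ± 0.70 with injury under placebo and by 0.38 ± 0.70 with inhibitor in injured limbs, and Sdc1 by 0.37 ± 0.50 and -0.93 ± 0.51. In injured placebo limbs 1 and 4, with low Prg4, Sdc1 was at 2.19 and 2.14 CPM, against 2.17 to 3.18 CPM in injured inhibitor limbs. Its lower level with inhibitor was thus not seen against those limbs. Trem2, a receptor of macrophages and microglia, had the largest differences of the 3, at 2.09 ± 1.41 and -4.83 ± 1.68 (edgeR adjusted p = 0.6709 and 0.24). It averaged 7.59 ± 8.61 CPM in injured placebo and 0.262 ± 0.192 CPM in injured inhibitor limbs (SD, n = 4 each), and it was at or below 0.496 CPM in each of the 12 libraries with low Prg4.

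The related kinases and the other colony-stimulating factor receptors give a comparison for Csf1r. Kit, the stem cell factor receptor, differed by 0.72 ± 0.46 with injury under placebo and by -0.67 ± 0.46 with inhibitor in injured limbs. Pdgfra, a receptor of fibro-adipogenic progenitors, differed by 0.65 ± 0.30 and -0.47 ± 0.30, and Pdgfrb, of pericytes, by -0.20 ± 0.15 and -0.02 ± 0.15. In injured placebo limbs 1 and 4, with low Prg4, Kit was at 1.47 and 1.47 CPM, against at most 1.78 CPM in injured inhibitor limbs. Pdgfra was at 33.4 and 32 CPM there against at most 32.7 CPM, so both overlapped. Flt3 was too low to be tested, at or below 1.6 CPM. The receptor chains Csf2ra and Csf2rb, which serve GM-CSF, differed by 1.67 ± 0.78 and 1.01 ± 0.45 with injury and by -1.87 ± 0.79 and -1.59 ± 0.46 with inhibitor. Csf3r, the G-CSF receptor of neutrophils, differed by 1.70 ± 0.96 and -2.32 ± 1.00. Of 5 such genes tested, all were higher with injury and all lower with inhibitor, and 0 were called. When the 4 libraries with high Prg4 were left out, 4 were higher with injury, and with inhibitor 2 were higher and 3 lower, with a median of -0.0177 in place of -1.59. Tnf and Il1b, cytokines that induce Csf1 in other settings, were at or below 0.436 and 1.02 CPM and were not tested.

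**Figure D4:**
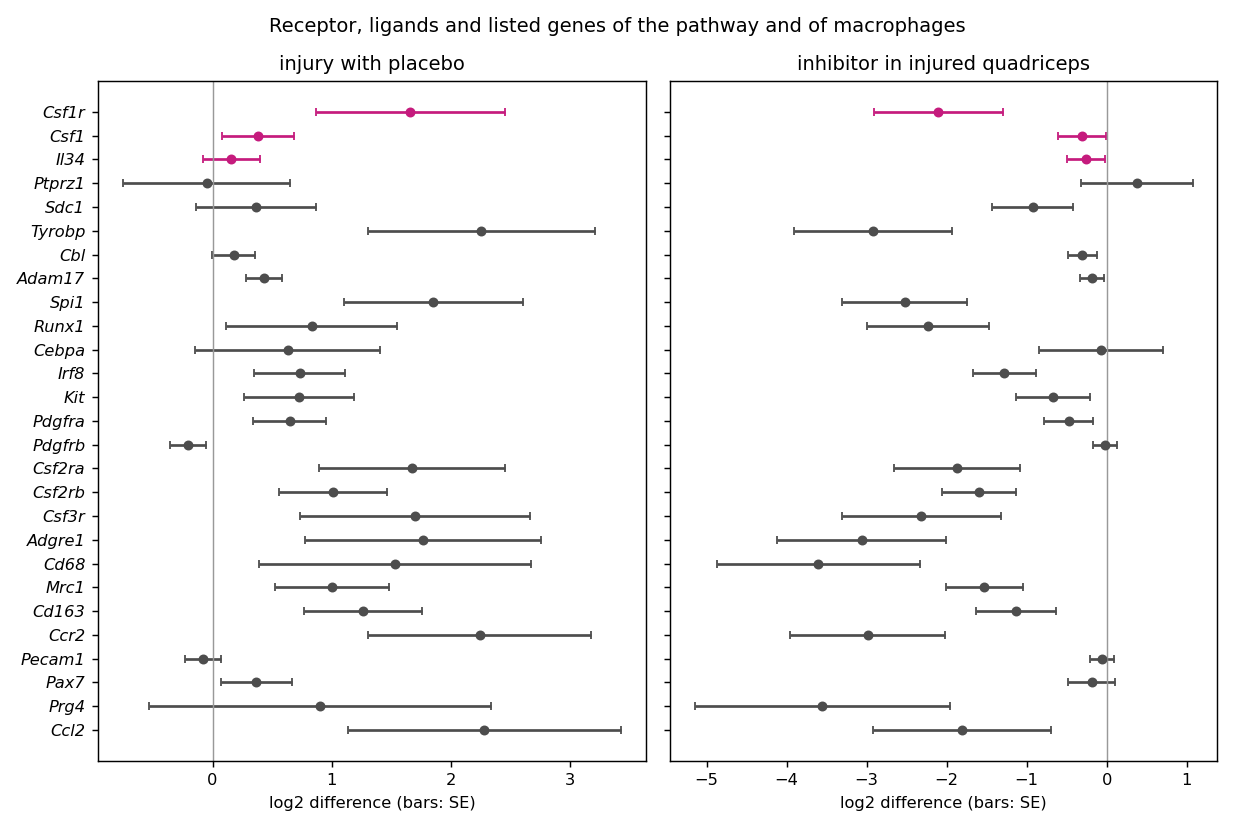
Log2 differences from edgeR (horizontal axes, bars are SE) of Csf1r, Csf1 and Il34 (magenta) and of every tested gene singled out in the lists (grey), for injury with placebo (left) and for the inhibitor in injured limbs (right). Csf1r is at 1.66 and -2.10, Csf1 at 0.38 and -0.31 and Il34 at 0.16 and -0.26, and none of the genes shown passed the edgeR threshold.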

How the data were processed

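TRIzol and a kit column were used for RNA extraction, per the labels' protocols. The authors deposited 1 table of expected counts by Ensembl identifier, without normalization, in which 33.8% of values were not whole. The submitters' processing notes list STAR, Partek, DESeq2 and GRCm38 (mm10) without roles, and annotation release and strand setting are not given in the sources used here. GENCODE M21 supplied gene symbols and positions.

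Counts were rounded. edgeR 4.0.16 in R 4.3.3 was fitted to all 16 libraries with 4 group means (quasi-likelihood, robust, TMM, filterByExpr with a minimum count of 10, two-sided, Benjamini-Hochberg over 15411 genes at 0.05). DESeq2 1.42.0 and limma 3.58.1 were alternatives. An edgeR fit with the same 4 group means was run on simulated counts. The DESeq2, limma, permutation and correlation steps were not tested in this way. log2 CPM used a prior count of 2. Within-library log2 ratios were compared with exact permutation tests, and correlations with 100000 permutations. Members, lists and the Prg4 limit of 100 CPM were chosen with earlier results of these data known. The text names the members, the genes singled out in the lists and the 5 genes most correlated with each member. It also names list genes chosen after their values were seen (Grb2, Trem2, Stat3). Library totals of 20.12 to 27.13 M (mega) counts set the counting error only. Same-animal limbs, read from paired left and right names, had correlated deviations of -0.53 to 0.47, and the estimated correlation within animals was 0.0162. No 2 libraries were identical. Separate animals stand behind the replicates of a group only as far as the labels call them biological replicates.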

Additional observations from a re-analysis of the deposited data

How the results depend on the processing

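Alternatives were DESeq2, its size factors in edgeR, no filter on low counts, limma-voom with quality weights or with a within-animal correlation, a fit of the compared libraries alone, animal or replicate number as a block, and leaving out the 4 libraries with high Prg4. Scaling to library totals instead of TMM shifts the median gene by 0.142 for injury with placebo, close to the 0.16 fitted for Il34 there, by -0.134 for the inhibitor in injured limbs and by -0.122 for the difference of injury effects. Depth limits Il34 most, at 41 to 106 counts per library.

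The genes called with DESeq2 were 2 for injury with placebo, 1 for injury with inhibitor, 248 for the inhibitor in injured limbs, 12 for it in healthy limbs and 315 averaged over limbs. Quality weights called 1229 genes for the inhibitor in injured limbs, with Csf1r at -2.29, and 121 averaged over limbs. The correlation within animals left 14 genes averaged over limbs, and removal of the 4 libraries left 3. The cause of these shifts was not tested. With the animal as a replicate block, edgeR called 0 genes in every injury comparison and changed no member's call. With replicate number as a replicate block, which pairs nothing between treatments, 1 gene was called for the inhibitor in injured limbs and Il34 was at 0.00 in healthy limbs.

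Some signs reversed, and not only at values near 0. The main fit had Csf1r at -0.52 for the inhibitor in healthy limbs and Csf1 at -0.31 for the inhibitor in injured limbs. For the inhibitor in healthy limbs, Csf1r was at 0.31 with quality weights, 0.17 with the correlation within animals and 0.08 without the 4 libraries, and Il34 at 0.06, 0.02 and 0.24. Without the 4 libraries, Csf1 was at 0.21 for the inhibitor in injured limbs and 0.28 averaged over limbs, Il34 at 0.01 averaged, and the log2 ratio of Csf1 to Csf1r at -0.07 in healthy limbs. The correlations of Csf1 with Csf1r and with Il34 were each 0.44 within the 12 other libraries and no longer passed the threshold.

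Leaving out 1 library or, added after the data had been seen, both libraries of 1 animal gave the following ranges. For injury with placebo they were 1.03 to 2.97 for Csf1r, -0.02 to 0.32 for Il34 and 0 to 971 genes called, the upper ends for Csf1r and the genes without placebo animal 4. For injury with inhibitor they were -0.18 to 0.47 for Csf1r, -0.07 to 0.20 for Csf1 and -0.24 to 0.11 for Il34. For the inhibitor in injured limbs, 0 to 746 genes were called, the most without placebo animal 4, and Csf1r stayed between -2.41 and -1.71. For the inhibitor in healthy limbs they were -0.92 to 0.49 for Csf1r, -0.16 to 0.39 for Csf1, -0.12 to 0.16 for Il34 and 0 to 6 genes. The difference of injury effects had 0 to 1 gene called. Injury averaged over treatments gave -0.05 to 0.14 for Il34 and 0 to 8 genes, and the inhibitor averaged over limbs gave -0.33 to 0.05 for Csf1 and 0 to 149 genes, the most without placebo animal 1. The log2 ratio of Csf1 to Csf1r ranged from -0.46 to 0.20 for injury with inhibitor and from -0.35 to 0.49 for the inhibitor in healthy limbs, and Csf1r relative to the macrophage mean from -0.49 to 0.09 for the difference of injury effects.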
